A study of Rattus norvegicus with 12 samples.

Results

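Polysome loading of 10174 genes was compared between livers of fetuses from fed dams and from fasted dams. All 12 arrays of the series were used, and the genes were those of 14497 named on the array that passed a filter on dim signal. Loading is the log2 intensity of a gene in polysome RNA minus its log2 intensity in total RNA of the same replicate number and diet. Each diet therefore gave 3 loading values per gene, and the change in loading is the mean of the 3 fasted values minus the mean of the 3 fed values. A change of 1 is a 2-fold higher ratio of polysome to total signal after fasting, relative to the other genes on the array.

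The animals were Sprague Dawley rats, and livers were taken at day 19 of a gestation of 21 days. Control dams (3) ate ad libitum, and the other dams (3) were fasted for 48 hr from day 17, which the labels use as a model of intrauterine growth restriction (IUGR). Per the labels, polysomes were separated on sucrose gradients and their RNA was extracted from pooled polysome preparations with acid phenol and chloroform, whereas frozen liver homogenized in guanidine thiocyanate and spun through cesium chloride gave the total RNA. Each of the 4 groups (fed total, fed polysome, fasted total, fasted polysome) had 3 arrays. The labels do not say what an equal replicate number shares. In the results and figures, the total and polysome arrays of equal number and diet are called a liver, as a short name only. That such arrays came from the same liver was inferred from their correlation and is not known. The fractions were labelled from equal amounts of RNA, so a change in the total mass of polysomes per liver does not appear in these values. Livers were whole tissue, and fewer cells of a type and less RNA per cell cannot be told apart.

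A messenger RNA that is being translated carries several ribosomes and sediments with polysomes, whereas a repressed one sediments with light particles. When nutrients are scarce, lower mTORC1 signalling is known to move mRNAs with a 5' terminal oligopyrimidine tract (TOP mRNAs), which encode ribosomal proteins and elongation factors, out of polysomes. Amino acid shortage also acts through GCN2 and phosphorylated eIF2, which lowers initiation in general while mRNAs with upstream open reading frames, such as Atf4, stay on ribosomes. The fetal liver at this age is both a metabolic organ and the main site of blood formation.

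For most genes loading differed little between the 2 diets. The SD of mean loading over genes was 0.386 in fed and 0.389 in fasted livers, and the median loading of a liver ran from 0.03 to 0.06 log2. Array medians were alike (101.3 to 108.3 on the linear scale), so a median loading near 0 was largely set by the processing. These SDs and medians therefore do not show that a gene kept its loading. Across genes, which are not independent replicates, loading correlated at r = 0.784 to 0.862 in the 6 pairs of livers of 1 diet and at 0.723 to 0.858 in the 9 pairs of different diets. The change in loading had a median of 0.01 log2 and an SD of 0.168 over genes. Only 33 genes differed by 1.5-fold or more and 7 by 2-fold or more. For 9232 genes (90.7%), the 95% interval of the change lay within 1.5-fold in either direction.

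In limma's moderated test on the 6 liver differences with Benjamini-Hochberg adjustment, 1 gene of 10174 passed an adjusted p of 0.05 (0.00983%). The next smallest adjusted p was 0.487. At an unadjusted p under 0.05, 565 genes (5.55%) had higher and 287 (2.82%) lower loading after fasting, 852 (8.37%) in all. The 3 fasted values lay above all 3 fed values for 824 genes (8.1%) and below them for 587 (5.77%). These shares are the background for the counts of members given below. The unadjusted counts moved with single livers. They were 1012 and 458 without fasted liver 2, 692 and 507 without fed liver 1, 384 and 171 without fed liver 3, 328 and 197 without fasted liver 1, and 333 and 185 without fasted liver 3. Without the pairing of total and polysome RNA by number they were 354 and 195. With quantile normalization they were 504 and 367, and with arrays centred on their median 574 and 210. The excess of higher over lower genes thus moved with the normalization. Small counts within a list also moved with single livers. Some of these moves stand beside the counts, and a count given alone is not thereby stable.

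**Figure D1:**
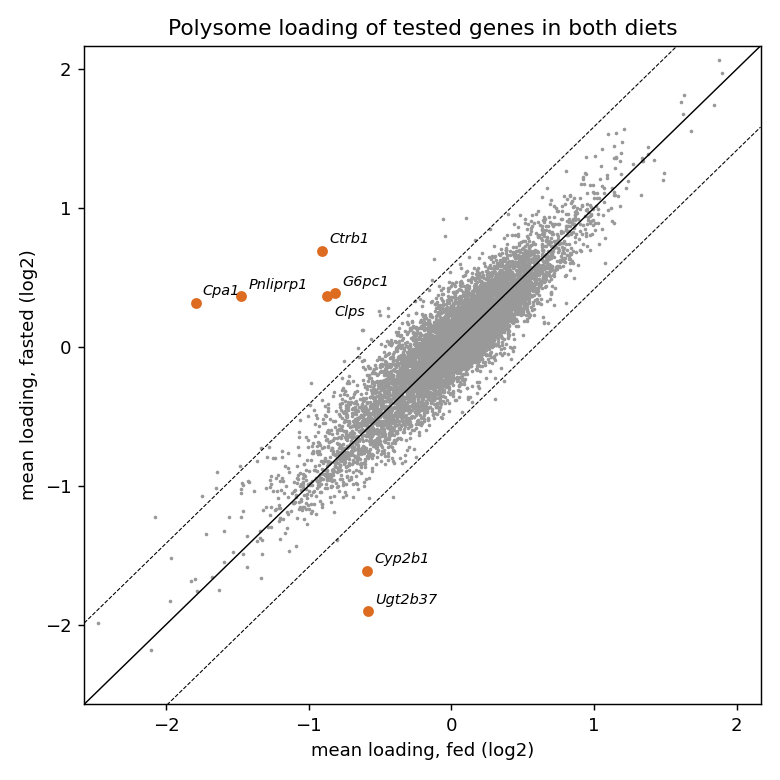
Mean polysome loading (log2, polysome minus total) of each of the 10174 tested genes in fed livers (horizontal axis) and fasted livers (vertical axis), 3 livers per diet. The solid line marks equal loading and the dashed lines a 1.5-fold difference. The 7 genes at 2-fold or more are named and coloured, and 5 of them lie above the line.

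The gene that rose was Cpa1 (Entrez 24269), which encodes carboxypeptidase A1, a digestive enzyme made by acinar cells of the exocrine pancreas. Its loading was -2.31, -1.43 and -1.64 log2 in the fed livers and 0.43, -0.05 and 0.57 in the fasted livers. The diets did not overlap. The change was 2.11 ± 0.22 log2 (SE, 3 livers per diet; 95% interval 1.62 to 2.60), a 4.32-fold rise, with an adjusted p of 0.0192 in limma. The levels behind it moved mostly in total RNA. Log2 intensity of Cpa1 in fed total RNA was 10.1, 7.87 and 8.98, against 7.07, 7.21 and 6.72 in fasted total RNA. In polysome RNA it was 7.79, 6.44 and 7.33 in fed and 7.499, 7.16 and 7.29 in fasted livers, where the diets overlapped. Fasted minus fed was thus -1.98 for total and 0.13 for polysome RNA. The call was lost without the pairing by number (adjusted p = 0.856 in limma), with a number shared across diets as a block (0.0662) or with the liver as a random block (0.46). It was also lost without fed liver 3 (0.101), without fasted liver 1 (0.145) and without fasted liver 3 (0.0923), while the change stayed between 1.85 and 2.30 log2 with any 1 liver left out.

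Several other digestive enzymes of the exocrine pancreas were also highest in fed total RNA. Over all 20 genes of this list on the array, with no filter, the median change was 0.06 log2, and 7 were higher and 1 lower after fasting at an unadjusted p under 0.05 (4.08% and 2.66% of all 14497 genes). With the filter 10 of the 20 were kept, with a median of 0.75 (0.35 to 0.99 with any 1 liver left out), 6 higher and 1 lower. The count of 6 was 3 without the pairing by number. Of these 10, Pnliprp1, Clps, Cela3b and Cel had mean fasted total intensities of 5.66, 5.95, 5.84 and 5.94 log2, under the filter level, and were kept through their fed total arrays. The median and count over the 10 are therefore a description and no support. The trypsinogens Prss1 and Prss2, the lipase Pnlip and the amylase Amy2a3, which are defining products of acinar cells, were among the 10 genes under the filter, with mean log2 intensities of 5.10, 5.62, 5.94 and 5.998 against a filter level of 6.07. Prss1 and Prss2 were under that level on every array, and Pnlip ran from 5.78 to 6.10. Amy2a3 differed by group. It was 8.71, 6.09 and 7.38 in fed total RNA and 4.88, 5.33 and 5.08 in fasted total RNA. In polysome RNA it was 5.85, 4.84 and 6.33 in fed and 5.69, 5.80 and 5.99 in fasted livers.

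Pnliprp1, a relative of pancreatic lipase, had loading of -2.61, -0.93 and -0.88 in fed livers and 0.47, 0.41 and 0.23 in fasted livers. Its change was 1.84 ± 0.37 log2 (adjusted p = 0.487 in limma). Without fed liver 1 it was 1.28 with an adjusted p of 0.0115 in limma. That liver held the outlying fed value of this gene, so the smaller p without it is no support. Ctrb1, a chymotrypsinogen, had loading of -2.05, -0.31 and -0.36 in fed and 0.83, 0.75 and 0.51 in fasted livers, a change of 1.60 log2. Colipase (Clps), the cofactor of pancreatic lipase, had -1.62, -0.55 and -0.44 against 0.20, 0.68 and 0.22, a change of 1.24. In each of these 3 genes fed liver 1 was the lowest, and the diets did not overlap. The bile salt-activated lipase Cel (0.77) and the elastase Cela3b (0.73) had smaller differences in the same direction. Carboxypeptidase B1 (Cpb1) was the exception, with loading of -0.79, 0.22 and -0.65 in fed and -0.96, -1.01 and -1.27 in fasted livers, a change of -0.67. The change was 0.19 for the elastase Cela2a, -0.04 for the ribonuclease Rnase1 and -0.01 for Cela1.

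The summed linear intensity of the 20 pancreas genes was highest in fed total RNA, at 5157, 1691 and 2428. It was 1311 to 1841 in fed polysome RNA, 1456 to 1567 in fasted total RNA and 1436 to 1685 in fasted polysome RNA. Fed liver 1 stood apart in total RNA only. The part of pancreas RNA in the Cpa1 result was not tested. With fed liver 1 and fasted liver 2 both left out, the change of Cpa1 was 2.04 log2 with an adjusted p of 0.00296 in limma. In that fit 1194 genes (11.7%) were higher and 786 (7.73%) lower at an unadjusted p under 0.05. Fed liver 1 stood apart in these same values, so the fit without it is a description and no support for the call.

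**Figure D2:**
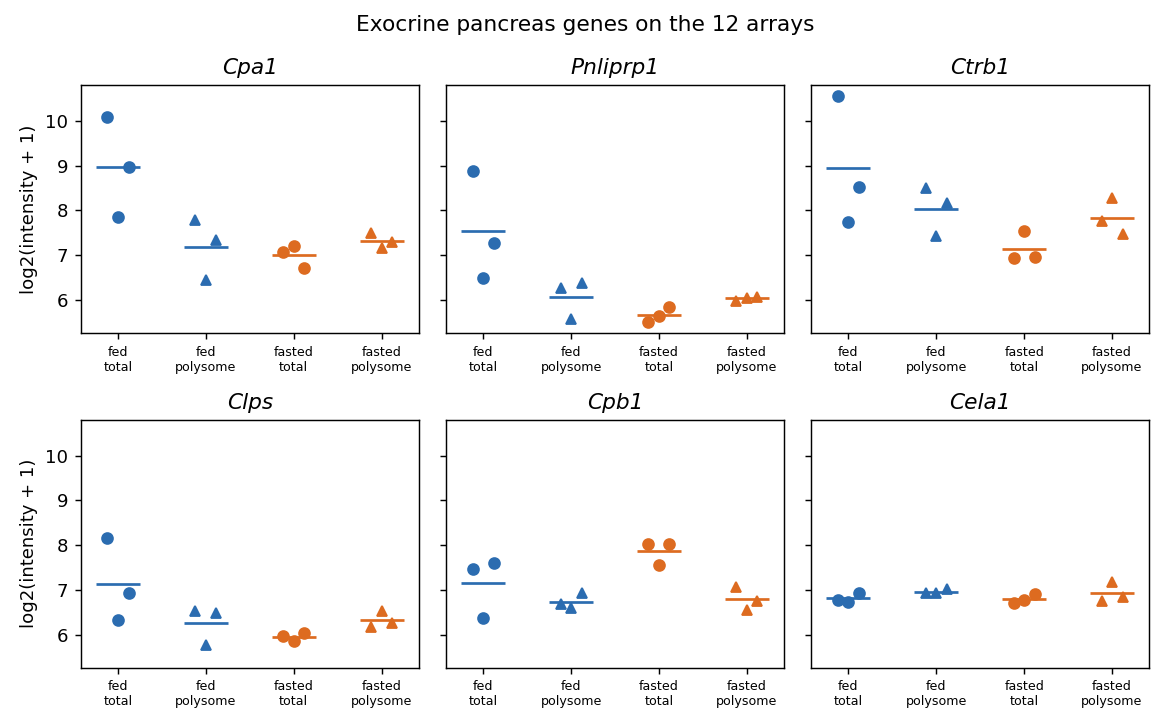
Log2(intensity + 1) of 6 exocrine pancreas genes on each of the 12 arrays; circles are total RNA, triangles polysome RNA, blue fed, orange fasted, and bars group means of 3 arrays. In Cpa1, Pnliprp1, Ctrb1 and Clps the fed total arrays are spread widely with liver 1 highest, and Cpb1 is highest in fasted total RNA.

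The remaining genes with the smallest p-values did not pass the adjusted threshold (each adjusted p = 0.487 in limma), and their values are given as a description. Several of those with higher loading encode matrix proteins that were poorly loaded in fed livers. Asporin (Aspn), a small leucine-rich proteoglycan, had loading of -1.79, -2.21 and -2.22 in fed and -0.98, -1.40 and -1.29 in fasted livers, a change of 0.85 ± 0.15 log2 (SE). Lysyl oxidase (Lox), which crosslinks collagen and elastin, had -1.64, -1.53 and -1.77 against -0.80, -1.17 and -1.07, a change of 0.63. The mean fed polysome intensity of Aspn was 5.51 log2, under the filter level of 6.07, so its loading there was taken against a dim signal. In both genes the lowest fasted liver lay above the highest fed liver. Egfl6, a secreted matrix protein with EGF-like repeats, had loading of -0.69, -0.72 and -0.86 in fed and 0.12, -0.09 and -0.32 in fasted livers, a change of 0.66, with a mean fed polysome intensity of 5.96 log2, also under the filter level.

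Pou2af1, a coactivator of octamer-binding factors in B cells, had loading of -0.57, -0.76 and -0.62 in fed and -0.08, -0.14 and -0.01 in fasted livers (0.58 ± 0.10 SE). Lef1, a nuclear partner of β-catenin, had -0.13, -0.01 and -0.27 against 0.41, 0.33 and 0.70 (0.61). The zinc finger factor Zfp521 had -0.43, -0.19 and -0.72 against 0.31, 0.02 and 0.51 (0.73). All 3 went from loading below 0 in every fed liver to higher values in every fasted liver. Slirp, an RNA-binding protein of mitochondria, had 0.16, -0.06 and 0.11 against 0.61, 0.51 and 0.58 (0.50). Anapc10, a subunit of the anaphase-promoting complex, differed by 0.58, and Rnf7, a RING subunit of cullin ubiquitin ligases, by 0.56. For Pou2af1, Lef1 and Slirp fasted minus fed was -0.41, -0.53 and -0.41 log2 in total RNA and 0.17, 0.08 and 0.09 in polysome RNA.

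**Figure D3:**
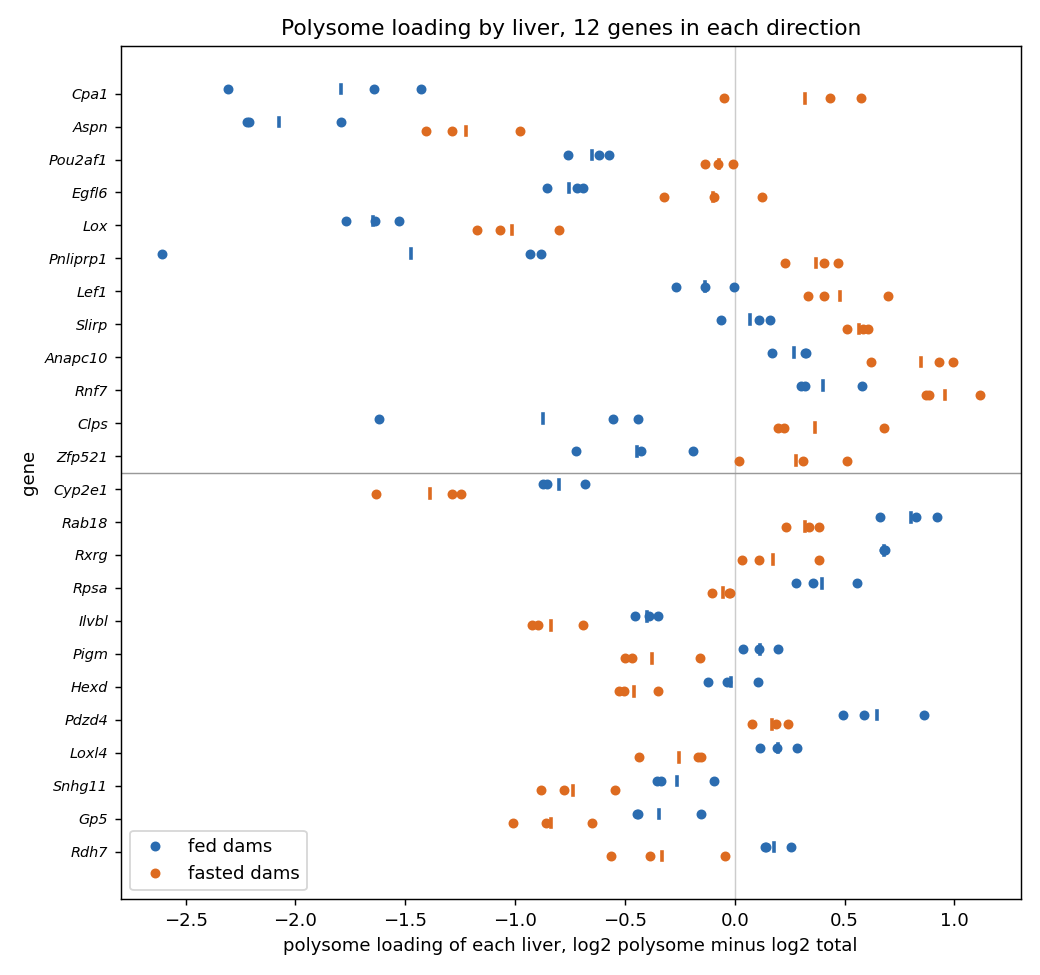
Polysome loading (log2, polysome minus total) of named genes in each of the 6 livers, blue for fed and orange for fasted, with bars at the mean of 3 livers. Cpa1 spans the largest gap between diets, and for the other genes shown the gap is under 1 log2 apart from Pnliprp1 and Clps.

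On the lower side, Cyp2e1, the ethanol-inducible cytochrome P450 of hepatocytes, had the smallest p. Its loading was -0.87, -0.85 and -0.68 in fed and -1.24, -1.29 and -1.63 in fasted livers, a change of -0.58 ± 0.13 log2 (SE). The level of Cyp2e1 itself was higher after fasting in both fractions, by 1.13 log2 in total and by 0.55 in polysome RNA. Rdh7, a retinol dehydrogenase, had the same order with a change in loading of -0.51, and its mean fed total intensity of 6.05 log2 was below the filter level.

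Rxrg, the γ form of the retinoid X receptor, had loading of 0.68 in each of the 3 fed livers and 0.38, 0.11 and 0.03 in the fasted livers, a change of -0.50. Rab18, a small GTPase of lipid droplets and the endoplasmic reticulum, differed by -0.48 on its brightest probe and by 0.19 on its other probe, so the probes disagreed in direction. Ilvbl (-0.44), the glycosylphosphatidylinositol mannosyltransferase Pigm (-0.49), the hexosaminidase Hexd (-0.44), the PDZ-domain protein Pdzd4 (-0.48) and the lysyl oxidase relative Loxl4 (-0.45) also had 3 fasted values below all fed values. For Loxl4 the mean fed total intensity was 6.04 log2, under the filter level.

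Of the 7 genes at 2-fold or more, 4 were pancreas genes and the other 3 were liver enzymes. G6pc1, the catalytic subunit of glucose-6-phosphatase that releases glucose from the liver, had loading of -1.51, -0.42 and -0.51 in fed and -0.23, 0.0038 and 1.39 in fasted livers. The diets did not overlap, but the fasted livers spread over more than the change itself, which was 1.20 ± 0.39 log2 (SE; adjusted p = 0.493 in limma). Fasted minus fed was 0.93 in its polysome level and -0.27 in its total level. The glucuronosyltransferase Ugt2b37 had a change of -1.31 ± 0.39 (adjusted p = 0.487 in limma) and the cytochrome P450 Cyp2b1 of -1.02 ± 0.38 (adjusted p = 0.544 in limma). Total RNA of Cyp2b1 was 2.09 log2 higher after fasting and its polysome RNA 1.07 higher.

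Cytosolic ribosomal proteins, the classic TOP mRNAs, had a median change of -0.0025 log2 over 72 tested genes. At an unadjusted p under 0.05, 1 was higher and 4 lower (1.39% and 5.56%, against 5.55% and 2.82% of all genes), and none passed the adjusted threshold. The count of 4 was 1 without fed liver 3 and 1 without fasted liver 1. The median loading of the list was 0.11, 0.09 and 0.17 in the fed livers and 0.12, 0.07 and 0.15 in the fasted livers, so the diets overlapped. Among 21 other TOP mRNAs, such as elongation factors, the median was 0.0052, with Eef1b2 the only member at an unadjusted p under 0.05 (0.30). The sequence at the annotated start of the transcript was searched for such a tract. In the promoter table of RefSeq (GRCr8), a C at the start followed by at least 4 C or T on the sense strand was found in 722 of 27457 promoters (2.63%), in 220 of 8441 tested genes with an entry (2.61%) and in 23 of 60 cytosolic ribosomal protein genes (38.3%). The 23 had a median change of 0.0005 and the others -0.026. It was found in 0 of 17 other TOP mRNAs, 1 of 50 initiation and elongation factors, 2 of 55 mitochondrial ribosomal protein genes and 0 of 64 oxidative phosphorylation genes. Since the 17 are known TOP mRNAs, a missing match in this window does not show that a gene lacks the tract. The windows below run from 20 bases before to 20 bases after the start. They show the cytosolic ribosomal protein gene of smallest p and the 3 of smallest p among those with a tract. The last 2 are the mitochondrial ribosomal protein genes of smallest p, which had no match. Capitals mark the pyrimidines that run on from a C at the start.
Rpsa: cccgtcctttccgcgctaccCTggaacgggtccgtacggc
Rpl22: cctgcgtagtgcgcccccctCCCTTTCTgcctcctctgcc
Rps27: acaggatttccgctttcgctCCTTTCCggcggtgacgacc
Rpl35a: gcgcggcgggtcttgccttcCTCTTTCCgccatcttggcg
Mrps18c: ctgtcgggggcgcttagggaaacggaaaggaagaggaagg
Mrpl22: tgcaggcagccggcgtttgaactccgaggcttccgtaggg
They lie at chr8:128728859-128728898 (plus strand, Rpsa), chr5:168117941-168117980 (plus, Rpl22), chr2:177964587-177964626 (minus, Rps27), chr11:81235002-81235041 (minus, Rpl35a), chr14:9122887-9122926 (minus, Mrps18c) and chr10:42845890-42845929 (plus, Mrpl22). The start is that of the table and was not measured here.

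Rpsa, a protein of the small subunit that also serves as a laminin receptor, had the lowest change of the list. Its loading was 0.36, 0.28 and 0.56 in fed and -0.10, -0.02 and -0.03 in fasted livers, a change of -0.45 ± 0.11 log2 (SE; adjusted p = 0.487 in limma), and -0.31 on its other probe. At the start given by the table it has a run of 2 pyrimidines. Rpl22 and Rps27, with runs of 8 and 7, had changes of -0.22 and -0.31, and Rpl35a, with a run of 8, had 0.27. These genes were chosen by their smallest p, so they say nothing about the tract and the change. Ribosomal proteins have many near-identical copies in the genome, so their probes may share signal.

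Other parts of the translation apparatus had medians near that of all genes. The 57 initiation and elongation factors had a median of 0.03, with 3 higher and 0 lower at an unadjusted p under 0.05. Eef1e1, a scaffold of the aminoacyl-tRNA synthetase complex, led them at 0.39. Without fasted liver 2 the counts were 8 higher and 3 lower. The 38 ribosome biogenesis genes had a median of -0.0018, with 3 higher, and the nucleolar chaperone Nolc1 (0.35) had the smallest p. The 21 cytosolic aminoacyl-tRNA synthetases had a median of -0.03 and no member at an unadjusted p under 0.05. The methionyl-tRNA synthetase Mars1 had the smallest p among them, with a change of -0.25.

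Mitochondrial ribosomal proteins, which are made in the cytosol and build the ribosomes that translate the mitochondrial genome, had a median change of 0.15 log2 over 69 tested genes. Of the 69, 54 had a positive change, against 5423 of all 10174 genes (53.3%). At an unadjusted p under 0.05, 15 were higher and 0 lower (21.7% higher, background 5.55%). Fasted values lay above all fed values for 13 and below them for 2 (8.1% and 5.77% of all genes). None passed the adjusted threshold. The median loading of the list was 0.31, 0.34 and 0.47 in fed livers and 0.56, 0.37 and 0.58 in fasted livers. Fasted liver 2 lay within the fed range. The count of 15 was 27 without fasted liver 2, 6 without fed liver 2, 8 without fasted liver 1, 7 without fasted liver 3 and 8 without the pairing by number, and the median stayed between 0.10 and 0.21 in all 18 alternatives.

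Single members show the size of the difference. Mrps18c had loading of 0.55, 0.55 and 0.58 in fed and 0.92, 0.80 and 1.00 in fasted livers, a change of 0.35 ± 0.10 log2 (SE; adjusted p = 0.487 in limma). Mrpl22 had 0.30, 0.47 and 0.56 against 0.84, 0.73 and 0.84 (0.36), and Mrpl21 had 0.22, 0.15 and 0.19 against 0.56, 0.48 and 0.51 (0.33). Mrps27 was below 0 in all livers, at -0.48, -0.49 and -0.49 in fed and -0.06, -0.29 and -0.07 in fasted livers (0.35). These 4 genes did not overlap between diets. Over the list the median of fasted minus fed was -0.10 in total RNA and 0.0095 in polysome RNA.

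Nuclear-encoded subunits of oxidative phosphorylation, the respiratory chain and ATP synthase, had a median change of 0.09 log2 over 72 tested genes. Of these, 10 were higher and 0 lower at an unadjusted p under 0.05 (13.9% higher, against 5.55% of all genes). Fasted values lay above all fed values for 20 and below them for 3 (8.1% and 5.77% of all genes). The core complex I subunit Ndufv2 had loading of -0.18, -0.25 and -0.19 in fed and 0.20, 0.07 and 0.28 in fasted livers, a change of 0.39 ± 0.10 (SE; adjusted p = 0.487 in limma). The cytochrome oxidase subunits Cox7b (0.43) and Cox7a2 (0.39) had similar values. The list's median loading overlapped between diets, at 0.37, 0.27 and 0.45 in fed and 0.48, 0.36 and 0.53 in fasted livers. The count of 10 was 16 without fasted liver 2, 5 without fed liver 2, 5 without fasted liver 1 and 3 without fasted liver 3.

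The 36 proteasome subunits had a median of 0.09. At an unadjusted p under 0.05, 3 were higher and 0 lower (8.33% higher, against 5.55% of all genes). By separation of the livers 8 were above and 0 below (8.1% and 5.77% of all genes). The immunoproteasome subunit Psmb9 had the largest change of these (0.47), with loading of -0.66, -0.39 and -0.79 in fed and 0.08, -0.48 and -0.04 in fasted livers, where fasted liver 2 fell among the fed livers. The count of 3 was 1 without fed liver 2, 1 without fed liver 3, 0 without fasted liver 1 and 1 without fasted liver 3.

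**Figure D4:**
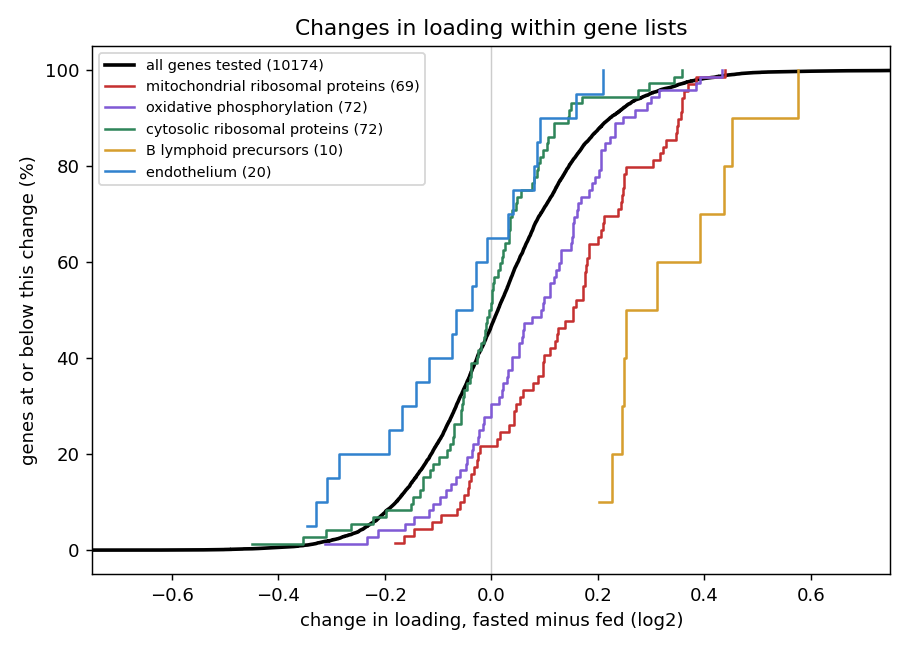
Cumulative share of genes (vertical axis, %) at or below each change in loading (horizontal axis, log2, fasted minus fed) for all 10174 tested genes and 5 gene lists. Mitochondrial ribosomal proteins (median 0.15) and oxidative phosphorylation (0.09) lie to the right of all genes (0.01), cytosolic ribosomal proteins follow the curve of all genes, and all 10 B lymphoid genes are above 0.

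Of 17 mRNAs under control of upstream open reading frames in stress, 3 had positive and 14 negative changes, with a median of -0.09 log2 and no member at an unadjusted p under 0.05. Ifrd1, a transcriptional regulator, had the smallest p, with loading of 0.42, 0.47 and 0.41 in fed and 0.16, 0.37 and 0.14 in fasted livers (-0.21). Atf4, the transcription factor of the amino acid response, had a change of -0.12 with a 95% interval of -0.43 to 0.19, and Ddit3, a proapoptotic factor it induces, of -0.13 (-0.50 to 0.25). The interval of Atf4 thus included both a modest gain and a modest loss. The list's median loading was 0.09, 0.25 and 0.26 in fed and 0.05, 0.13 and 0.17 in fasted livers, which overlapped.

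Targets of ATF4 had a median change of -0.08 over 28 tested genes, with 6 positive and 22 negative, 1 higher and 2 lower at an unadjusted p under 0.05. The cystine transporter Slc7a11 had a change of -0.47, while its level after fasting was 1.33 log2 higher in total RNA and 0.86 higher in polysome RNA. The amino acid transporter Slc38a2 had -0.28, and Shmt2, the mitochondrial serine hydroxymethyltransferase, 0.30. Asparagine synthetase (Asns), a standard marker of the response, had a change of 0.0083 with an interval of -0.22 to 0.23.

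Genes with other known forms of translational control gave few members beyond the background. Among 9 iron genes with an iron-responsive element the median was -0.0045 with 0 at an unadjusted p under 0.05, and Epas1, the hypoxia-inducible factor 2α, had the smallest p (-0.22). Among 18 selenoproteins, which recode a stop codon, the median was 0.03 with 2 higher, led by Gpx3 (0.41). With any 1 liver left out this count was 0 to 4. Among 11 polyamine and antizyme genes the median was -0.03 with 1 higher, the spermidine and spermine acetyltransferase Sat1 (0.23). The 19 replication-dependent histones, whose mRNAs end in a stem-loop in place of a poly(A) tail, had a median of 0.10, 15 positive changes and no member at an unadjusted p under 0.05. H2ac1 (0.16) had the smallest p of them.

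Cpt1a, the gatekeeper of fatty acid entry into mitochondria, was 1.27 log2 higher in total RNA and 1.07 higher in polysome RNA after fasting. Its loading was -0.13, 0.11 and 0.07 in fed and -0.23, -0.28 and -0.06 in fasted livers, which overlapped, with a change of -0.21 (95% interval -0.45 to 0.04). Pdk4, the kinase that shuts off pyruvate dehydrogenase, was 0.62 higher in total and 0.95 higher in polysome RNA, with loading of -0.11, -0.17 and -0.03 in fed and 0.02, 0.15 and 0.50 in fasted livers (0.33, 0.04 to 0.62; adjusted p = 0.568 in limma). Vnn1, a pantetheinase under PPARα, was 1.01 and 1.17 higher, a change in loading of 0.16 (-0.19 to 0.51).

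The lipogenic enzymes went the other way in level. Stearoyl-CoA desaturase (Scd) was -1.52 in total and -1.29 in polysome RNA after fasting, with a change in loading of 0.23 (-0.07 to 0.53). Fatty acid synthase (Fasn) was -0.89 and -0.81, with a change in loading of 0.08 (-0.18 to 0.34). For Cpt1a, Scd, Fasn and Vnn1 the interval of the loading change included 0 and did not reach 1.5-fold in either direction. Over lists, 31 fatty acid oxidation and ketogenesis genes had a median of 0.02, with Pdk4 the only member at an unadjusted p under 0.05, and 22 fatty acid and triglyceride synthesis genes had 0.03, with Scd2 (-0.27) the only one.

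The 19 genes of cholesterol synthesis and uptake had a median of 0.01, with 1 higher, squalene synthase Fdft1 (0.29), and 1 lower. The 33 genes of glucose metabolism had 0.01, with 2 higher (G6pc1 and Pdk4) and 2 lower. Those were the glucose transporter Slc2a1 (-0.28) and the glucose-6-phosphate transporter Slc37a4 (-0.30), which feeds G6pc1 in the endoplasmic reticulum. The 33 genes of the urea cycle and amino acid catabolism had a median of -0.02 and no member at an unadjusted p under 0.05, with Bckdhb, of the branched-chain ketoacid dehydrogenase, at the smallest p (0.32).

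Secretory output of the liver had no called member. The 40 plasma protein genes had a median of -0.02 and 0 members at an unadjusted p under 0.05, with angiotensinogen (Agt) at the smallest p (-0.27). Albumin (Alb) had loading of -0.10, -0.13 and -0.14 in fed and -0.13, -0.10 and -0.07 in fasted livers. Its change of 0.02 had a 95% interval of -0.19 to 0.23. The 37 genes of endoplasmic reticulum translocation and folding had a median of -0.01, with the chaperone Hyou1 (-0.31) the only member at an unadjusted p under 0.05. The 29 heat shock chaperones had 0.04 with 2 higher, led by the small heat shock protein Cryab (0.76), in which fasted liver 2 (-0.05) lay with the fed livers and the others were at 0.97 and 0.99.

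Growth control genes had no called member. Insulin-like growth factor 2 (Igf2), the main fetal growth factor of the axis, had loading of -0.10, -0.17 and -0.07 in fed and -0.35, -0.21 and -0.29 in fasted livers. These did not overlap, with a change of -0.17 (95% interval -0.38 to 0.05). Igfbp1, a binding protein known to be raised by fasting, was 0.51 higher in total and 0.69 higher in polysome RNA, with a change in loading of 0.18 (-0.30 to 0.66). The 21 genes of the IGF axis had a median of -0.05, with 0 higher and 2 lower, led by Igfbp4 (-0.33). With any 1 liver left out, 0 to 1 were higher and 0 to 4 lower. Among 27 growth arrest and FoxO target genes the median was 0.03, with 2 higher and 1 lower. The 2 were 6 without fasted liver 2 and 1 without fed liver 2 or fasted liver 3. Depp1, a FoxO target linked to autophagy, had the largest of these, 0.98 ± 0.23 log2 (SE; adjusted p = 0.487 in limma), from -0.54, 0.33 and 0.04 in fed to 0.77, 0.64 and 1.35 in fasted livers.

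Cell cycle genes had medians of 0.0045 for 41 DNA replication and G1/S genes and 0.05 for 35 mitosis genes. At an unadjusted p under 0.05 the replication list had 0 members, with Pcna at the smallest p (0.21). Of the mitosis genes 3 were higher, and the checkpoint kinase Bub1 (0.28) had the smallest p. With any 1 liver left out this mitosis count was 0 to 3. The 24 immediate early genes had a median of 0.03 with 2 higher, and the matricellular protein Ccn1 (0.36) had the smallest p of these genes. For these, 1 was higher and 5 were lower without fasted liver 3, and 0 higher and 1 lower without fed liver 3, so single livers turned the direction. The 16 circadian clock genes had a median of 0.10 with 2 higher and 1 lower. Their smallest p was that of the heme receptor Nr1d1 (0.40), a repressor of the clock. Its mean fed polysome intensity was 6.01 log2, under the filter level. The 122 zinc finger proteins named Zfp had a median of 0.02 with 6 higher and 4 lower (4.92% and 3.28%), led by Zfp521. With any 1 liver left out, 3 to 11 were higher and 0 to 4 lower.

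**Figure D5:**
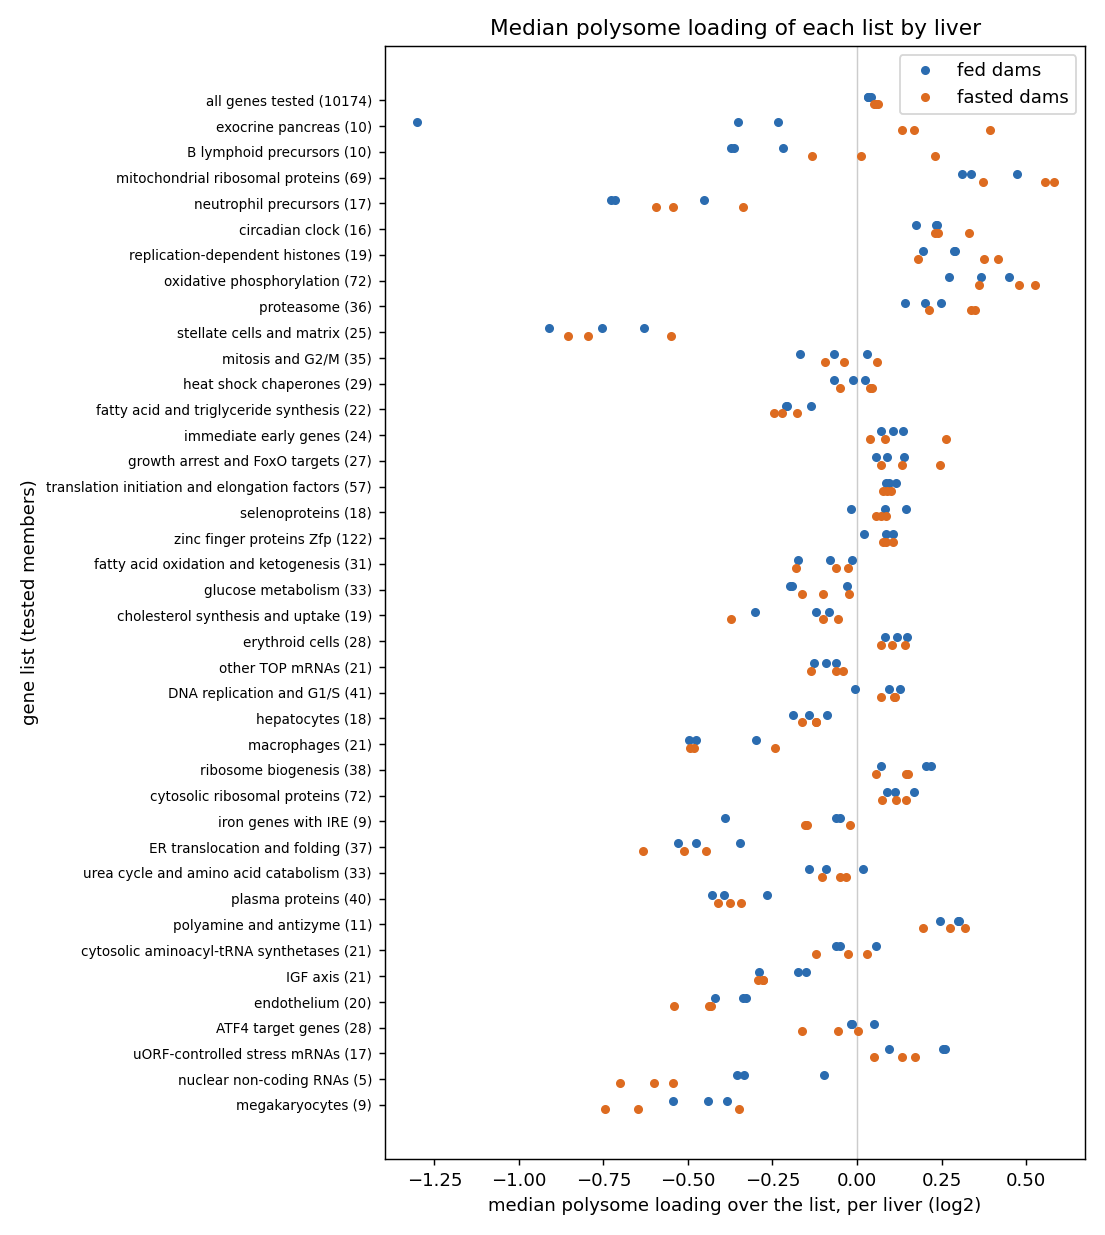
Median polysome loading (log2, horizontal axis) over the tested members of each gene list in each of the 6 livers, blue for fed and orange for fasted, with the number of tested members in brackets and lists ordered by their median change. The livers of the 2 diets do not overlap for exocrine pancreas, B lymphoid precursors, endothelium, nuclear non-coding RNAs and all genes tested, and overlap for mitochondrial ribosomal proteins and megakaryocytes. For all genes tested the gap is small, from 0.04145 in fed liver 2 to 0.04963 in fasted liver 2.

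Markers of the cell types in fetal liver were examined in the same way. The defining hepatocyte genes were strongly present, with a summed linear intensity of 18 markers between 132600 and 160600 on the 12 arrays, and the 28 erythroid markers summed to 151500 to 169700. The 18 hepatocyte markers had a median change in loading of 4.3e-05 log2 and no member at an unadjusted p under 0.05, with the hepatic factor Foxa3 at the smallest p (-0.28). The 28 erythroid markers had 0.01 with 1 higher and 1 lower, the lower one being the erythropoietin receptor Epor (-0.28). The 21 macrophage markers had -0.0002 with 3 higher and 1 lower, the scavenger receptor Marco (-0.39). The 17 neutrophil precursor markers had 0.13 with 0 at an unadjusted p under 0.05, and Ngp, a granule protein, had the smallest p (0.49). Without fasted liver 2 the neutrophil count was 4 higher, with fed liver 1 also left out it was 10, and the median ran from -0.0078 to 0.23 with any 1 liver left out. The macrophage count of 3 was 0 without fed liver 2, fed liver 3 or fasted liver 3.

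B lymphoid precursors had the highest median among the blood cell lists, 0.28 log2 over 10 tested genes of 13 on the array. All 10 changes were positive, against 53.3% of all genes. At an unadjusted p under 0.05, 5 were higher (50%, against 5.55% of all genes). For 4 the fasted values lay above all fed values, as for 8.1% of all genes. After Pou2af1, the largest were the surrogate light chain gene Igll1 (0.39), the pre-B cell gene Vpreb3 (0.45) and the transcription factor Ebf1 (0.44). Vpreb3 had loading of -0.24, -0.29 and -0.57 in fed and -0.02, 0.07 and 0.21 in fasted livers. The median loading of the list was -0.36, -0.22 and -0.37 in fed and 0.01, -0.13 and 0.23 in fasted livers. The summed intensity of the 13 genes was 1841 to 1955 in fed total, 1419 to 1487 in fed polysome, 1576 to 1859 in fasted total and 1548 to 1939 in fasted polysome RNA, so the polysome sums did not overlap. The count of 5 was 9 without fasted liver 2, 3 without fed liver 1, 3 without fasted liver 3 and 2 without the pairing by number. Most of these genes were dim. With the filter at the 60th percentile only 2 were tested, and 1 of them was higher.

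Megakaryocyte markers lay on the other side, with a median of -0.18 over 9 tested genes of 18 listed. Of the 9, 3 had positive and 6 negative changes. At an unadjusted p under 0.05, 0 were higher and 4 lower (44.4%, against 2.82% of all genes). With any 1 liver left out the median ran from -0.34 to -0.09. The median loading of the list was -0.44, -0.54 and -0.38 in fed and -0.35, -0.65 and -0.75 in fasted livers, which overlapped. Platelet glycoprotein V (Gp5) had loading of -0.44, -0.45 and -0.15 in fed and -0.86, -0.65 and -1.01 in fasted livers, a change of -0.49 ± 0.13 log2 (SE; adjusted p = 0.487 in limma). Platelet factor 4 (Pf4) had 0.56, 0.55 and 0.84 against 0.40, 0.20 and -0.05 (-0.47). The integrin subunit Itgb3 (-0.39) and thrombospondin 1 (Thbs1, -0.30) were the other 2. All 4 had fasted values below all fed values, as had 5.77% of all genes. The summed intensity of the 9 markers was 6461 to 7061 in fed and 5238 to 5975 in fasted polysome RNA, and overlapped in total RNA at 8139 to 8904 and 7632 to 9286.

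Endothelial markers had a median of -0.05 over 20 genes. At an unadjusted p under 0.05, 0 were higher and 4 lower (20%, against 2.82% of all genes). The 4 were the junction proteins Esam (-0.35) and Pecam1 (-0.33), the lectin Clec14a (-0.29) and the receptor Tie1 (-0.31). Esam had loading of -0.32, -0.36 and -0.53 in fed and -0.66, -0.77 and -0.81 in fasted livers, without overlap. The cadherin Cdh5 (0.16) and endomucin Emcn (0.21) had the opposite sign, also without overlap. The count of 4 was 1 without fed liver 2, 1 without fed liver 3, 2 without fasted liver 1 and 2 without fasted liver 3.

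Stellate cell and matrix genes were poorly loaded in both diets, with a median loading of -0.75 in fed and -0.78 in fasted livers, and a median change of 0.05 over 25 genes. At an unadjusted p under 0.05, 5 were higher and 1 lower (20% and 4%, against 5.55% and 2.82% of all genes). The lower one was the receptor Pdgfra (-0.35). Decorin (Dcn) had loading of -2.52, -2.37 and -2.53 in fed and -2.16, -1.93 and -1.86 in fasted livers, a change of 0.49 ± 0.11 log2 (SE; adjusted p = 0.487 in limma). Periostin (Postn, 0.50), osteoglycin (Ogn, 0.44), the pericyte gene Rgs5 (0.38) and dermatopontin (Dpt, 0.32) were the other higher ones. The count of 5 was 3 without fed liver 3.

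RNAs that are not translated show what the polysome fraction holds besides coding mRNA. The 5 tested non-coding RNAs were listed as nuclear, but their place in the cell was not measured. Their summed linear intensity was 13980 to 15000 in fed and 12640 to 15190 in fasted polysome RNA. In total RNA it was 21760 to 22280 in fed and 21970 to 22360 in fasted livers. Of the 5, 0 were higher and 2 lower in loading at an unadjusted p under 0.05, with a median of -0.16. Snhg11, a host of small nucleolar RNAs, had loading of -0.10, -0.35 and -0.33 in fed and -0.88, -0.55 and -0.78 in fasted livers (-0.47). The imprinted RNA Meg3 had 0.17, 0.38 and 0.57 against -0.48, 0.26 and -0.53 (-0.62), with fasted liver 2 inside the fed range. The median of the list ran from -0.29 to 0.06 with any 1 liver left out and so changed sign. H19, an imprinted RNA abundant in fetal liver, had a change of 0.11.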

How the data were processed

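RNA from total and polysome fractions of fetal rat liver was hybridized to 12 arrays (Affymetrix Rat Gene 1.0 ST). The authors deposited 1 intensity per probe and array, and the submitters' processing notes name RMA, with a version not given in the sources used. The deposited intensity values ran from 3.62 to 21344, a linear scale, so log2(value + 1) was used. Of 28826 probes, 15209 had exactly 1 gene symbol in the platform table (306 had several and 13311 were not listed), for 14497 genes. Symbols of 15178 probes were updated by Entrez identifier through RefSeq. The brightest probe of a gene was used, and genes under the 40th percentile of mean log2 intensity over all probes (6.07) were left out (4323 genes). Array medians were 101.3 to 108.3 on the linear scale, and the number of arrays limits the precision.

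Loading was polysome minus total for equal numbers within a diet. Total and polysome arrays with the same number correlated in their deviations from group means with r between 0.154 and 0.362 (6 pairs). Arrays with unequal numbers gave -0.219 to -0.0227 (12 pairs), which is partly forced; the pairing is an inference from this, since the labels do not state it. The 3 fasted and 3 fed differences were compared with limma 3.58.1 (lmFit and eBayes, R 4.3.3; 4 residual and 6.38 prior degrees of freedom), two-sided, with Benjamini-Hochberg adjustment over 10174 genes and a threshold of 0.05. The median SE was 0.117 log2. In a test on simulated data with 50 genes per size, recovery was 20% at 1.3-fold, 56% at 1.5-fold, 88% at 2-fold and 100% at 3-fold changes in loading. All sizes were placed in the same simulated set, and so many changed genes loosen the Benjamini-Hochberg cut-off. With few changed genes recovery is lower, so these rates overstate what this comparison could call.

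Genes with an informative symbol were named by a rule, 12 in each direction. Called genes whose livers did not overlap came first. The smallest p-values made up the 12, whether or not the livers overlapped. Per list of at least 5 tested genes, the called members or the 1 with the smallest p were named. The fixed set was Cpt1a, Scd, Fasn, Vnn1, Pdk4, Igfbp1, Igf2 and Alb. Further list members were named after their values were seen, as were the genes at 2-fold or more. The members and lists were chosen with earlier results of these data known. Protein lengths were not used here. Alternatives were other blocks, filters, normalizations, added constants, probe means, priors and leaving out livers. Figures were drawn with matplotlib 3.10.9 in Python 3.11.15.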

Additional observations from a re-analysis of the deposited data

Results flagged for a closer look

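The change in loading of Cpa1 differed between the diets in the test of the difference itself, at 2.11 log2 (higher in 3 of 3 fasted livers; adjusted p = 0.0192 in limma).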

How the results depend on the processing

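The count of genes past the adjusted threshold was 1, and it was 0 with no replicate block, 0 with a replicate block shared across diets, 0 with the replicate block as a random effect, 3 with fed liver 1 and fasted liver 2 left out together, and 0 to 2 with any 1 liver left out. The only call, Cpa1, thus depended on the pairing by replicate number. It was also lost in fits that kept the pairing. These were the fit with a block shared across diets and those without fed liver 3, fasted liver 1 or fasted liver 3. The cause was not tested. Without fed liver 1 and fasted liver 2 the changes of Igfbp1 and Fasn were -0.11 and -0.036 log2, against 0.18 and 0.08. With 3 livers per diet the median 95% interval reached 0.26 log2 to either side, and in simulated data only 20% of 1.3-fold changes were recovered. That simulation held many changed genes at once, so even this share overstates what the comparison could call.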
